A study of Mus musculus with 2 samples.

Results

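The 10 genes described here, Ier2, Ier3, Ier5, Myc, Nr4a1, Nr4a2, Nr4a3, Btg2, Maff and Csrnp1, are early response genes outside the AP-1, EGR, KLF and DUSP families. They were taken by gene symbol from the 54713 genes of the table, and each symbol was held by 1 row. RNA was sequenced from SV40 MES13, a mouse mesangial cell line immortalised with SV40 sequences, in a pair of stable sublines. The control subline carried the control lentivirus Lv_NC and is labelled WT and untreated. The other subline carried the lentivirus Lv_AI662270 for overexpression of the long noncoding RNA AI662270 and is likewise labelled untreated. Both were selected with 0.5 mg/ml puromycin and then grown with 0.25 mg/ml puromycin in DMEM that held 10% fetal serum. Each group was 1 library of 1 subline, so the differences below could not be checked against replicates, each comparison is of these 2 libraries and not of the conditions, and no p-value was computed.

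Early response genes are switched on by growth factors, stress or calcium signals without new protein synthesis, mostly through the ERK cascade and the transcription factors SRF, CREB and the ternary complex factors. Their transcripts are short-lived, so their levels follow recent signalling. NR4A proteins are orphan nuclear receptors that need no ligand, MYC is a transcription factor of growth and proliferation that binds DNA with MAX, and BTG2 restrains proliferation and recruits the CCR4-NOT deadenylase. In mesangial cells, which support the glomerular capillaries, such genes are known to respond to serum, vasoactive peptides and platelet-derived growth factor.

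Whole reads per gene were counted by the authors: 15727023 in the control library against 15062482 in the AI662270 library. AI662270 itself, the check of the labels, was not seen in the control library, where 0 reads allow a level of up to 3 reads or 0.197 CPM (reads scaled to library size by the TMM method). In the AI662270 library it had 241 reads, or 15.5 CPM. The labels' protocol names another gene, Sox9, as the one whose stable expression was tested, and Sox9 had 234 reads in the control against 97 in the AI662270 library. Of the mesangial markers, Itga8 was at 0 in both libraries and Pdgfrb was at 12.2 and 21.7 CPM in the control and AI662270 libraries. Acta2 was at 0.789 and 10.97 CPM, Vim at 221 and 569 CPM, and Gata3 at 5.00 and 1.60 CPM. By the rule of size given below, Acta2 and Vim were higher and Gata3 was lower. The epithelial markers Epcam, Cdh1, Krt8 and Krt18 were all measured, and 2 of the 4 were lower. Of 5 podocyte markers 2 were measured, with Nphs1 at 0 in both libraries, Podxl lower at 122.9 and 42.4 CPM, and Synpo at 25.9 and 39.4 CPM. Of 4 leukocyte markers 2 were measured, with Adgre1 at 0 in both libraries, Csf1r lower at 27.6 and 9.63 CPM, and Cd68 at 6.51 and 4.88 CPM. None of 5 endothelial markers was measured, and of 4 proximal tubule markers 2 were, with neither past the rule. From the control to the AI662270 library the summed level of the 7 mesangial markers went from 241 to 608 CPM, most of it Vim, and that of the 4 epithelial markers from 1341 to 631 CPM. The summed podocyte, leukocyte, endothelial and proximal tubule levels went from 149 to 83.2, from 34.4 to 14.6, from 0.592 to 1.41 and from 47.8 to 52.4 CPM. The podocyte fall lay in Podxl alone. Synpo went up, as did Wt1, which was too low to be measured, from 0 to 1.41 CPM. The part of these marker differences in the results below was not tested, and in bulk RNA fewer cells of a type and less RNA per cell cannot be told apart.

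Most of the 10 genes were lower in the AI662270 library, Ier2 and Myc by the largest folds and Ier3 by the smallest among those measured. Genes whose 2 levels averaged 1 CPM or more were taken as measured. To be called lower or higher, a gene needed a log2 ratio past -1 or 1 with 0.5 CPM added to both levels, and an exact counting interval of its ratio that left out 1, which is called the rule of size below. Of the 10 genes 9 were measured, of which 8 were lower and 0 higher, and Nr4a3 was too low to be measured. Among all 13268 measured genes 5.72% were lower and 5.59% higher by the same rule. The 10 genes were chosen with earlier results of these data known, so these shares are a description and not an independent test. Of the 7 that averaged 50 CPM or more, 6 were lower and 0 higher, against 5.2% and 1.3% of all 5152 genes at that level. With a threshold of 3-fold in place of 2-fold, 4 of the 9 were lower, against 1.97% of measured genes, and with 1.5-fold 8 were, against 14.3%. The folds given below are of CPM with nothing added, whereas the rule adds 0.5 CPM to both levels. Maff, at 3.01-fold lower by CPM, therefore fell just short of the 3-fold threshold. The median log2 ratio was -1.58 for the 9 measured genes and -1.56 when Nr4a3 was included, against -0.02 for all measured genes. In the authors' deposited table, 6 of the 10 are listed with an adjusted p-value under 0.05 in either direction. The same holds for 897 of the 20667 genes given an adjusted p-value there. Those listed as lower make up 2.13% of the 20667, a share for 1 direction that is not like for like with the 6. That table also compares 1 library with 1 library. The summed level of the 10 genes went from 1846 CPM in the control library to 525 CPM, which is 3.51-fold lower.

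**Figure D1:**
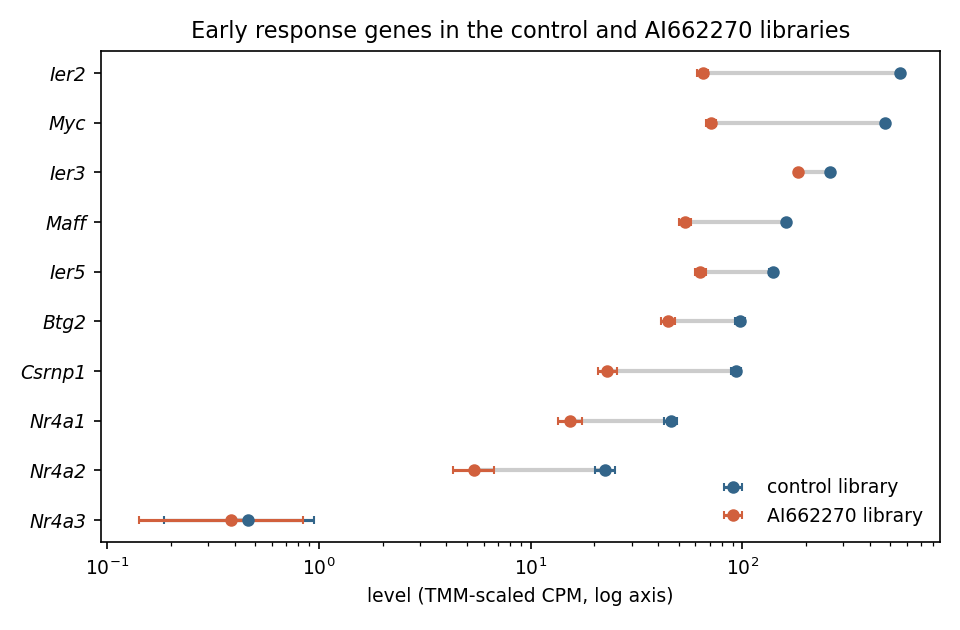
Levels of the 10 genes in the control library (blue) and the AI662270 library (orange) in TMM-scaled CPM on a log axis, with bars for 95% exact Poisson counting intervals and 1 library per group. The AI662270 point lies left of the control point for every gene, and only for Nr4a3, with 7 and 6 reads, do the counting intervals overlap.

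Brackets below hold 95% exact intervals, which cover counting error only. The IER genes, named as immediate early response genes, differed widely among themselves. Ier2 encodes a small nuclear protein, and its gene (ENSMUSG00000053560) lies on chromosome 8 from 84661331 to 84662852 in build mm10. It had 8420 reads, or 554 CPM, in the control library and 1012 reads, or 65.0 CPM, in the AI662270 library. Ier2 was 8.53-fold lower (7.99 to 9.11), with a log2 ratio of -3.08. Counted from the lowest log2 ratio, it was number 24 of all measured genes and number 9 of those with at least 50 CPM. Ier5, which encodes a nuclear protein of the same family that acts on the heat shock factor HSF1, lies on chromosome 1 from 155096361 to 155099636. It had 2131 reads, or 140.2 CPM, in the control library and 987 reads, or 63.3 CPM, in the AI662270 library. It was 2.21-fold lower (2.05 to 2.39) and stood at number 562. Ier3, which encodes a membrane-associated regulator of apoptosis, lies on chromosome 17 from 35821684 to 35822923. It had 3957 reads, or 260.3 CPM, in the control and 2859 reads, or 183 CPM, in the AI662270 library. Its log2 ratio of -0.50 did not reach the rule of size, although the interval of its ratio of 0.705 (0.672 to 0.740) left out 1. Ier3 was the measured gene of the 10 with the ratio nearest to 1, and it stood at number 2354 of the measured genes.

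Myc (ENSMUSG00000022346) lies on chromosome 15 from 61985391 to 61990374. It had 7159 reads, or 471 CPM, in the control library and 1109 reads, or 71.2 CPM, in the AI662270 library. Myc was 6.62-fold lower (6.21 to 7.05), with a log2 ratio of -2.72, and was number 50 of the measured genes from the lowest. Ier2 and Myc together held 55.5% of the summed CPM of the 10 genes in the control library against 25.9% in the AI662270 library, while the share of Ier3 was 14.1% in the control and 34.9% in the AI662270 library.

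Of the NR4A receptors, which bind DNA as monomers or dimers or together with RXR, Nr4a1 and Nr4a2 were measured. Nr4a1 (Nur77), on chromosome 15 from 101254269 to 101274795, had 696 reads, or 45.8 CPM, in the control library and 239 reads, or 15.3 CPM, in the AI662270 library. It was 2.98-fold lower (2.57 to 3.47). Nr4a2 (Nurr1), on chromosome 2 from 57106830 to 57124003, had 343 reads, or 22.6 CPM, in the control and 84 reads, or 5.39 CPM, in the AI662270 library, and was 4.18-fold lower (3.29 to 5.38). The intervals of Nr4a1 and Nr4a2 overlap at their ends, which does not show that their folds are equal. Nr4a3 (NOR-1), on chromosome 4 from 48045153 to 48086447, had 7 reads in the control library against 6 in the AI662270 library, and a ratio of 0.836 (0.232 to 2.91). A difference in Nr4a3 of the size seen for Nr4a1 and Nr4a2 was not detectable at this depth. The RXR partner genes Rxra and Rxrb had log2 ratios of 0.16 and -0.47 and did not reach the rule of size, and Rxrg was at 0 reads in both libraries.

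The remaining genes encode a cofactor and DNA-binding proteins of other families. Btg2, the antiproliferative gene described above, lies on chromosome 1 from 134075170 to 134079120. It had 1481 reads, or 97.4 CPM, in the control library and 695 reads, or 44.6 CPM, in the AI662270 library. It was 2.18-fold lower (1.99 to 2.39). Maff, on chromosome 15 from 79346621 to 79359076, encodes a small MAF protein that binds DNA as a partner of CNC and BACH factors. It had 2456 reads, or 162 CPM, in the control and 835 reads, or 53.6 CPM, in the AI662270 library, and was 3.01-fold lower (2.79 to 3.26). Csrnp1, on chromosome 9 from 119971163 to 119984658, encodes a cysteine- and serine-rich nuclear protein that AXIN1 induces. It had 1415 reads, or 93.1 CPM, in the control and 359 reads, or 23.04 CPM, in the AI662270 library, and was 4.04-fold lower (3.60 to 4.55). Csrnp1 overlaps a pair of annotated genes that had 1 read each in the control library against 0 in the AI662270 library, and no gene in the table overlaps the other 9.

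**Figure D2:**
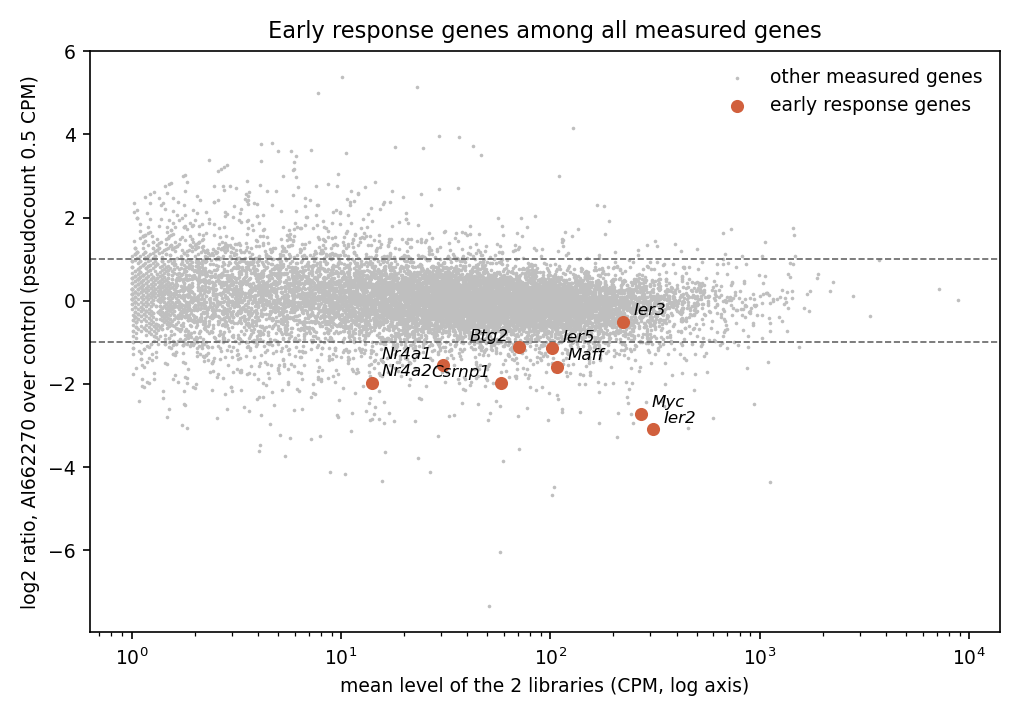
Each grey point is 1 of the other measured genes, by its mean CPM (log axis) and its log2 ratio of the AI662270 library over the control at a pseudocount of 0.5 CPM, with dashed lines at log2 ratios of 1 and -1. The 9 measured early response genes (orange) all lie below 0, with Ier3 at -0.50 above the lower line and Ier2 at -3.08 at the bottom of the set.

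By counting intervals the folds could be ordered in part. The interval of Ier2 lay above that of Myc, and both lay above those of all others. Nr4a2 overlapped Csrnp1 and Nr4a1, Maff overlapped Nr4a1, and Ier5 overlapped Btg2. The interval of Ier3 lay below those of the other 8 measured genes. The order rests on single libraries, and the spread between cultures is unknown.

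Levels per gene length, in the deposited FPKM (reads divided by gene length and by library size), ordered the genes almost alike in both libraries. Both libraries had the same divisor in the deposited FPKM, which equals the effective library size that DESeq2 size factors gave for both. In the control library Ier2 was highest at 359 FPKM, followed by Ier3 at 227, Myc at 171, Maff at 61.5, Ier5 at 42.3, Btg2 at 35.1, Csrnp1 at 26.5, Nr4a1 at 12.9, Nr4a2 at 5.49 and Nr4a3 at 0.076 FPKM. No neighbours in that order had overlapping counting intervals. In the AI662270 library Ier3 was highest at 164 FPKM, above Ier2 at 43.2 and Myc at 26.5 FPKM, and the order of the others was the same. Ier2 was thus 1.58 times the level of Ier3 per length in the control library, and Ier3 was 3.80 times the level of Ier2 in the AI662270 library. Maff at 20.9 FPKM (19.5 to 22.4) and Ier5 at 19.6 FPKM (18.4 to 20.8) had overlapping counting intervals there. Nr4a3 was last in both libraries.

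Promoter sequence was set beside these values, because 8 of the genes were lower together and early response promoters are known to carry sites for CREB. CREB binds the cAMP response element (CRE), TGACGTCA, whose shorter core is TGACG. RefSeq windows of build GRCm38.p6 were matched by symbol for 8 of the 10 genes, and Ier2 and Myc had no entry. Each window held the 250 bases before a transcription start, and both strands were searched. Maff had 3 such windows and Csrnp1 4, which gives them more room for a match than the 6 genes with 1. Of the 8 genes 6 had TGACG in at least 1 window, and Ier3 and Ier5 had none. In all, 17.8% of 32851 windows of the same length held TGACG. The 3 NR4A genes had 4 matches each, and 0.137% of all windows had 4 or more. The windows of Nr4a1, Nr4a2 and Nr4a3 held 74.4%, 80% and 63.6% G and C, against a median of 52.4% over all windows. The shares over all windows, here and for the other motifs, were not matched for this content. Whether the matches exceed those of windows of like content was not tested. The whole CRE was found in Btg2 and in the second of 3 Maff starts, and in 1.55% of all windows. Each whole CRE is a palindrome and counts as 2 overlapping TGACG matches, 1 on each strand. The windows of these 5 genes are shown 5′ to 3′ on the gene's strand, with each TGACG, or CGTCA where it lies on the other strand, in capitals.
Nr4a1, chr15:101266596-101266845, plus strand: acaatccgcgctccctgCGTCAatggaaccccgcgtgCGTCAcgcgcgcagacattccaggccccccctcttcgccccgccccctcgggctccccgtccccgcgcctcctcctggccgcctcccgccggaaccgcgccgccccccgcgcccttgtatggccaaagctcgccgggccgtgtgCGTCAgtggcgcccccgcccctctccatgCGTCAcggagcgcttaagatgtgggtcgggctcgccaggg
Nr4a2, chr2:57124004-57124253, minus strand: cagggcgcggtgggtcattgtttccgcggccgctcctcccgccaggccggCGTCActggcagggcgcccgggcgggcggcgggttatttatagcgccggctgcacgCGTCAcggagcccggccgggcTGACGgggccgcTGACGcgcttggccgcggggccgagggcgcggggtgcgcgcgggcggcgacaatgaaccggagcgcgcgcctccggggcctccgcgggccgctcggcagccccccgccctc
Nr4a3, chr4:48045055-48045304, plus strand: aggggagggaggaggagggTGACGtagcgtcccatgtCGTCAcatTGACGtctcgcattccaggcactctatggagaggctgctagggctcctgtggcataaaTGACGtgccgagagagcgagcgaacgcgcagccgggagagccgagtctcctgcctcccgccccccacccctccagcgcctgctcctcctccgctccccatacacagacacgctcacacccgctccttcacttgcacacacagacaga
Btg2, chr1:134079156-134079405, minus strand: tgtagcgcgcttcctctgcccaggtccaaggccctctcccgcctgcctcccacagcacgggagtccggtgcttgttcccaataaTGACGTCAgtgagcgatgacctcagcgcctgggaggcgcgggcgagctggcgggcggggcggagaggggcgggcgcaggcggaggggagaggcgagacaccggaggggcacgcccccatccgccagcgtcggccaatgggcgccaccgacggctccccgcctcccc
Maff, chr15:79347270-79347519, plus strand: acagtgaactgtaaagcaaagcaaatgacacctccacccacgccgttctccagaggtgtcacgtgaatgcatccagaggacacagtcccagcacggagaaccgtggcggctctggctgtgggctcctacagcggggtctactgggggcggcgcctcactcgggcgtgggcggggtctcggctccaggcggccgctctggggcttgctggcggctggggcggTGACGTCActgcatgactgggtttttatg

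In Nr4a1 the matches began at positions -233, -213, -69 and -40, counted from the transcription start. Among the windows shown, the starts used for Nr4a1, Nr4a3 and Maff lie inside the annotated spans of their genes. The Nr4a1 window ends at 101266845, while the span of that gene begins at 101254269. In Nr4a2 the matches began at -200, -144, -123 and -111, and in Nr4a3 at -231, -213, -205 and -147. Nr4a3, with 7 and 6 reads, held as many matches as Nr4a1 and Nr4a2, which were 2.98-fold and 4.18-fold lower. The Btg2 CRE began at -166 and the Maff CRE at -29. Ier5 was lower without a match, and Ier3, also without one, did not reach the rule of size. Of the other motifs searched, the E-box CACGTG, which MYC and MAX bind, was found only in Maff among the 8 genes and in 6.02% of all windows. The ETS core CCGGAA was found only in Nr4a1 and in 12.03% of all windows. The CArG box that SRF binds was found in 0 of the 8 genes and in 1.47% of all windows. The GC box GGGCGG was found in at least 1 window of all 8 and in 32.7% of all windows. A match is a description of these letters and not evidence of binding.

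Transcript features were set beside the genes as a description. The genes were chosen as a class known for short-lived transcripts, so these features are not independent of that choice. In GENCODE M21, 6 of the 10 had 3 exons or fewer in the chosen coding transcript (the APPRIS principal one with a 3′ UTR), against 12.3% of 11833 measured protein-coding genes. Ier2 and Ier5 had 1 exon, Ier3 and Btg2 had 2, Myc and Maff had 3 and Csrnp1 had 4. The 3 NR4A genes had 8 exons each, near the median of 9. The transcribed span was 1.24 kb for Ier3, 1.52 kb for Ier2 and 4.96 kb for Myc, and 9 of the 10 spans were below the median of 22.4 kb, Nr4a3 being the exception at 41.3 kb. The pentamer ATTTA, the core of AU-rich elements that mark unstable transcripts, occurred in the 3′ UTR of 9 of the 10 and of 70.3% of measured genes with a 3′ UTR of at least 100 bases. Its density was above the median of 1.35 per kb in 8 of the 10. Ier3 had 5 copies, or 8.16 per kb, Nr4a1 3 copies, or 5.52 per kb, Csrnp1 5 copies, or 4.65 per kb, and Myc 2 copies, or 4.52 per kb. Ier2, with the lowest ratio of the 10, had 0 copies in 755 bases, and Ier3, with the highest density, had the measured ratio nearest to 1.

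Genes beside the early response genes mostly did not share their difference. Of the 20 nearest measured genes, 1 on each side, 1 was lower and 2 were higher by the rule of size. Their median log2 ratio was 0.06. By the same rule 5.72% of all measured genes were lower and 5.59% higher, with a median log2 ratio of -0.02. The 20 neighbours lay between 0.307 and 3888 kb from the gene they flank. Of these 20, 16 had a log2 ratio nearer to 0 than that of the early response gene they flank. Most measured genes did not pass the rule of size and most of the early response genes did. The count of 16 therefore does not set neighbours apart from other genes. Nacc1, 7.63 kb from Ier2, had 5113 and 5527 reads and a log2 ratio of 0.08. Tmem184b, 1.61 kb from Maff, had 2983 and 2947 reads and a log2 ratio of -0.05. Flot1, the nearest neighbour at 0.307 kb from Ier3, had 1579 and 890 reads and a log2 ratio of -0.86, farther from 0 than that of Ier3. These 3 were chosen after their values were seen, as genes close to an early response gene. The lower neighbour was Fam84b, which had 1968 reads in the control and 472 in the AI662270 library, a log2 ratio of -2.08. It lies 1132 kb from Myc and overlaps a noncoding gene on the other strand, from which it cannot be separated if counting ignored strand. On the other side of Myc, Pvt1, a noncoding RNA gene 47.6 kb away that was also picked after its value was seen, had 347 and 183 reads. Its log2 ratio of -0.93 did not reach the rule. The higher neighbours were Atp2b4, a plasma membrane calcium pump gene beside Btg2, with a log2 ratio of 1.58, and Sec61b, a translocon subunit gene beside Nr4a3, with a log2 ratio of 1.06. Sec61b no longer passed with a pseudocount of 2 CPM. The 529 measured genes of chromosome 15, which carries Myc, Nr4a1 and Maff, had a median log2 ratio of -0.12.

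**Figure D3:**
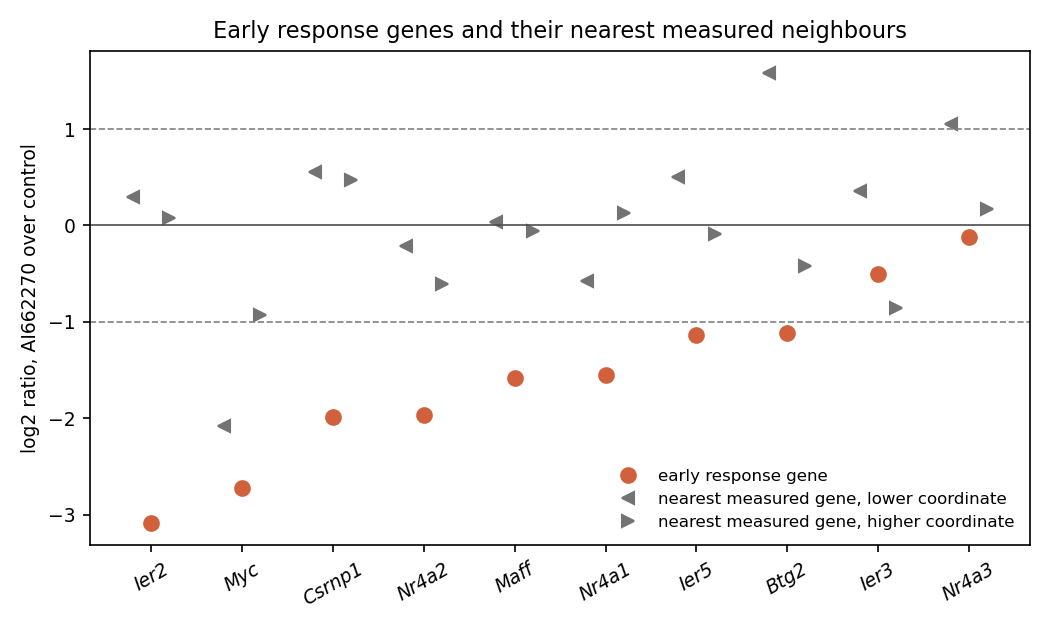
Log2 ratio (AI662270 over control, pseudocount 0.5 CPM) of each of the 10 genes (orange circles) and of the nearest measured gene at lower and higher coordinates (grey triangles), with dashed lines at 1 and -1. Beside Ier2 at -3.08 the neighbours lie at 0.29 and 0.08, and only beside Myc does a neighbour, at -2.08, lie below -1.

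Relatives of the 10 genes went different ways. Of 12 relatives 10 were measured, with 2 lower, 1 higher and a median log2 ratio of -0.29. Mycn, the MYC paralog of neural tissues, had 65 reads in the control library against 13 in the AI662270 library and was 5.12-fold lower (2.80 to 10.1). Mycl had 130 and 153 reads and a log2 ratio of 0.19. Mafk, another small MAF gene, had 1554 and 747 reads and was 2.13-fold lower (1.95 to 2.33), but it no longer passed when libraries were scaled by total counts. It overlaps Tmem184a on the other strand. Mafg had a log2 ratio of -0.68 and overlaps Sirt7. Csrnp2 was the higher relative, with 323 and 736 reads and a level 2.22-fold higher (1.95 to 2.54). Csrnp3 had 2 and 0 reads. Of the BTG and TOB genes, Btg1 had 3267 and 1683 reads and a log2 ratio of -0.99, Btg3 one of -0.56, Tob1 one of 0.23 and Tob2 one of -0.02, and none reached the rule. Btg4 had 1 read in each library. Ier5l had 662 and 670 reads and a log2 ratio of -0.02.

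MYC acts through MAX, and MXD, MXI1 and MNT proteins compete for MAX and repress the genes that MYC activates. Of 10 measured MAX partners and relatives 3 were higher and 0 lower, with a median log2 ratio of 0.19. Over all measured genes 5.59% were higher and 5.72% lower, with a median of -0.02. Mxd4 had 291 reads in the control and 825 in the AI662270 library and was 2.77-fold higher (2.42 to 3.17). Mxd3 had 86 and 234 reads and was 2.65-fold higher (2.07 to 3.44), though it overlaps the abundant gene Prelid1 on the other strand. Mxi1 had 775 and 1865 reads and was 2.35-fold higher (2.16 to 2.56). The other 7, among them Max at -0.41, Mnt at -0.60 and Mxd1 at 0.04 on the log2 scale, did not reach the rule.

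Growth genes that MYC is known to activate showed smaller differences than Myc. Of 24 genes of the nucleolus and of nucleotide and polyamine synthesis, all measured, 2 were lower and 0 higher. Among all measured genes 5.72% were lower and 5.59% higher. The median log2 ratio of the 24 genes was -0.34, against -0.02 for all measured genes. Of the 24 genes 18 had a log2 ratio below 0. With a threshold of 1.5-fold 9 were lower, against 14.3% of measured genes. Odc1, the first enzyme of polyamine synthesis, had 10811 reads in the control and 5234 in the AI662270 library and was 2.12-fold lower (2.05 to 2.19). Gnl3, which encodes the nucleolar protein nucleostemin and overlaps Pbrm1 on the other strand, was 2.13-fold lower (1.99 to 2.27). Neither passed when libraries were scaled by total counts. At the other end of the list Ddx18 had a log2 ratio of 0.34 and Ncl, the nucleolin gene, one of 0.21, both named after their values were seen.

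**Figure D4:**
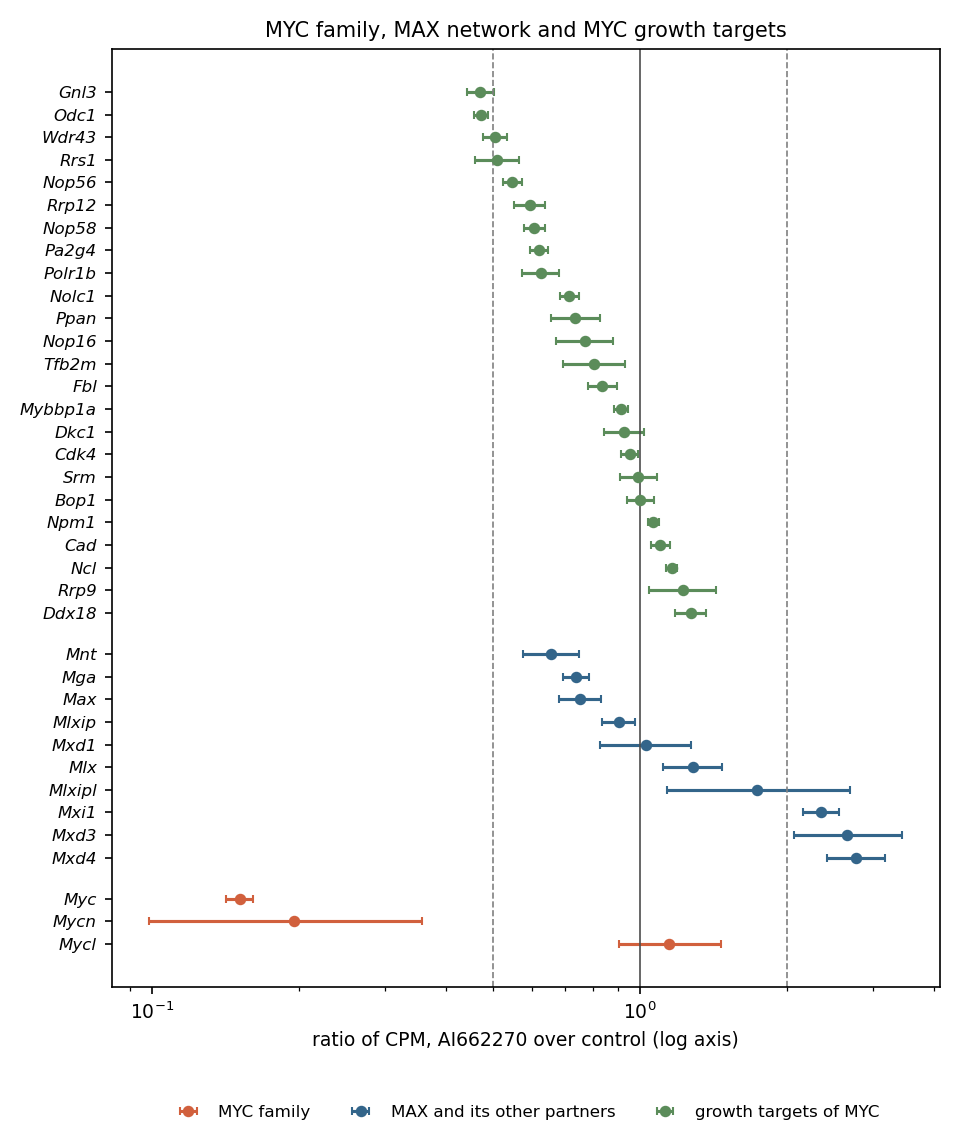
Ratio of CPM (AI662270 library over control, log axis) with 95% exact counting intervals for the MYC family (orange), MAX with its other partners and their relatives (blue) and growth targets of MYC (green). A solid line lies at 1 and dashed lines at 0.5 and 2. The blue set includes Mlx, Mlxip and Mlxipl, which are relatives. Myc lies at 0.151 and Mycn at 0.195, Mxi1, Mxd3 and Mxd4 lie between 2.35 and 2.77, and the growth targets lie between 0.471 for Gnl3 and 1.27 for Ddx18.

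Few partners of the other proteins passed the rule. Of the CNC and BACH genes 5 of 6 were measured and, against 5.72% of all measured genes, 1 was lower. It was Nfe2l1, a factor of proteasome and stress gene expression, with 8570 and 4327 reads and a 2.03-fold lower level (1.96 to 2.11), which no longer passed under total-count, DESeq2 or upper-quartile scaling or on FPKM. Of 10 CCR4-NOT subunits 0 passed in either direction, and the most abundant, Cnot1 and Cnot6, had log2 ratios of -0.25 and 0.44. Of 22 genes of the ERK cascade and of nuclear factors upstream of early response genes 0 passed in either direction. Their log2 ratios ran from -0.79 for Atf1 to 0.44 for Crtc1. Their median was -0.05, and it was 0.05 under total-count and 0.02 under upper-quartile scaling. Atf1, the lowest of them by ratio, encodes a relative of CREB. Of the 22 genes 12 had a log2 ratio below 0. Srf was at -0.66 and Creb1 at -0.60, and the ternary complex factor genes Elk1, Elk3 and Elk4 were at 0.02, 0.12 and -0.39. These were named after their values were seen. Transcript levels do not show the activity of these kinases and factors.

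The AP-1 and EGR genes, which the same stimuli induce, were also lower in part. Of 7 AP-1 genes 5 were lower and 0 higher, with a median log2 ratio of -1.81, against 5.72% and 5.59% of all measured genes. Fos, at a ratio of 0.042 (0.035 to 0.050), was below Ier2 at 0.117 (0.110 to 0.125), and Fosb, with 436 and 51 reads and a ratio of 0.114 (0.084 to 0.153), had an interval that overlapped that of Ier2. Jun, with 4272 and 955 reads and a ratio of 0.218 (0.203 to 0.234), had an interval that overlapped that of Csrnp1 at 0.248 (0.220 to 0.278). Jund and Fosl2 had log2 ratios of -0.49 and -0.73 and, like Ier3, did not reach the rule. Of 6 EGR and NAB genes 4 were measured, and Egr1 and Egr2 were lower. Egr1 had 32451 and 1614 reads and a ratio of 0.049 (0.046 to 0.051). Egr2 had 121 and 4 reads and a ratio of 0.032 (0.0086 to 0.085), an interval that held that of Egr1. A minimum mean of 5 CPM leaves Egr2 out. The difference between the 10 genes and these families was not tested, since each group held 1 library.

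**Figure D5:**
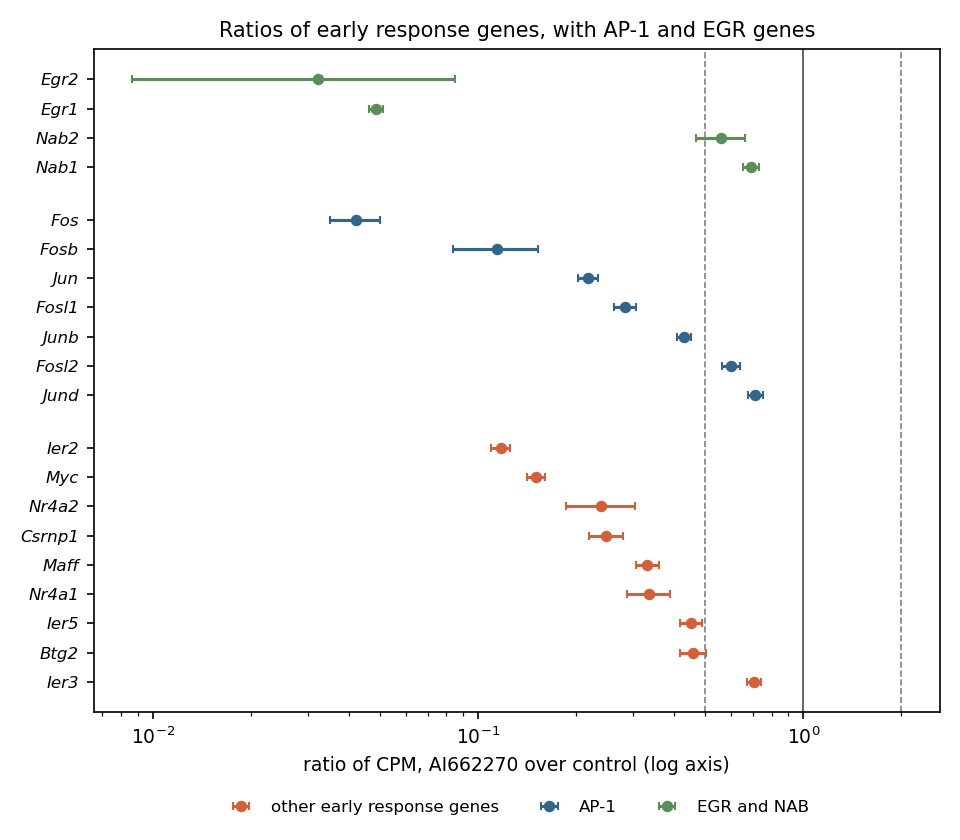
Ratio of CPM (AI662270 library over control, log axis) with 95% exact counting intervals for the 9 measured early response genes (orange), AP-1 genes (blue) and measured EGR and NAB genes (green), with a solid line at 1 and dashed lines at 0.5 and 2. The orange points run from 0.117 for Ier2 to 0.705 for Ier3, within the range of the AP-1 genes from 0.042 for Fos to 0.712 for Jund.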

How the data were processed

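RNA was sequenced from 1 library of each subline, and the labels name polyadenylated RNA where the design text names removal of ribosomal RNA. CASAVA 1.4, TopHat2 and build mm10 come from the submitters' processing notes. The counter, the annotation release and whether strand was used are not given in the sources at hand. The deposited counts are whole reads per gene with no normalization, judged from whole values with different totals. The authors' FPKM were found to equal the counts over gene length and over 15391166, the same number for both libraries and the effective size that DESeq2 gave for each. The authors' log2 fold changes and adjusted p-values, per the file headers, compare 1 library with 1 library and serve here only to say how many genes are listed. That the column headed Lv_Con belongs to the control virus Lv_NC rests on its name and on the labels' protocol.

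Counts were scaled with TMM in edgeR 4.0.16 (R 4.3.3), and CPM, ratios and exact intervals were computed in Python 3.11.15 with scipy 1.17.1. Intervals of ratios are Clopper-Pearson and those of levels Poisson, at 95%. Reads carry no molecular identifiers, so intervals and floors hold counting error alone. The floor for a count of 0 is 3 counts. Simulated data with known folds were used to test the rule of size. They held counting error alone and no spread between cultures. The 10 genes and the lists were chosen with earlier results of these data known. Named genes are the 10 genes, measured relatives, of each list up to 3 genes that passed and had the most extreme log2 ratios, or the 2 most abundant where none passed, and neighbours past the rule. Some genes that this rule or the marker lists name are not reported here. Alternatives were other scalings (total counts, DESeq2 1.42.0 size factors, upper quartile, ribosomal protein genes), pseudocounts, filters, fold thresholds and FPKM. Promoter windows are RefSeq's and transcripts GENCODE M21's.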

Additional observations from a re-analysis of the deposited data

How the results depend on the processing

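All 8 lower genes stayed lower by the rule of size under each alternative scaling (total counts, DESeq2 size factors, upper quartile, ribosomal protein genes), pseudocounts of 0.1 and 2 CPM and the FPKM columns, and the median log2 ratio of the measured genes ranged from -1.59 to -1.49. At a 3-fold threshold 4 of them were lower, against 1.97% of measured genes, and at 1.5-fold the number was 8, against 14.3%. The lists were run under the same alternatives after the data were seen. The shares of measured genes called lower, 14.3% at 1.5-fold and 1.97% at 3-fold, are the background for their counts too. The relatives had 1 lower under total counts, with a mean of at least 5 CPM and at 3-fold, and 4 lower at 1.5-fold, with 0 higher at 3-fold. The MAX network had 1 lower at 1.5-fold and 0 higher at 3-fold. The MYC growth targets had 0 lower under total counts and at 3-fold and 9 lower at 1.5-fold. The CNC and BACH genes had 0 lower under total counts, DESeq2 size factors, upper quartile, FPKM and 3-fold. The ERK list had 4 lower at 1.5-fold, and the EGR list 1 lower with a mean of at least 5 CPM and 3 at 1.5-fold. The AP-1 genes had 6 lower at 1.5-fold and 4 at 3-fold, and the MAX network 4 higher at 1.5-fold. The FPKM columns and DESeq2 size factors scale the libraries alike, so they are nearly 1 alternative. These counts changed because thresholds, scale or the genes tested changed. No paired analysis was possible because each group has 1 library, and no library could be left out. Depth limits Nr4a3, with 7 and 6 counts, and the unknown spread between cultures limits every value.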
